A study of Mus musculus with 4 samples.

Results

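Hemoglobin transcripts were followed across heart development through 7 of the 27998 genes counted in the series. The members were the α-like chains Hba-x, Hba-a1 and Hba-a2 and the β-like chains Hbb-y, Hbb-bh1, Hbb-bs and Hbb-bt, taken by name. Single-cell RNA sequencing had been performed on the hearts of C57Bl6J mice of 4 ages, namely E12, E15, P2 and 8 weeks (adult). CD31+/CD45− cells were sorted from pools of 37, 48, 21 and 6 animals, respectively, and frozen before loading. Embryonic cells passed a dead cell removal kit, postnatal and adult cells were sorted again after thawing, and a red blood cell lysis step is given for the adult hearts. Each stage had 1 library, so differences between stages were not tested and stage cannot be told apart from library. Where 4 values are listed, they follow the order E12, E15, P2, adult. All values are unique molecular identifiers (UMIs), each standing for 1 captured transcript end, and all intervals in parentheses are exact 95% intervals that cover counting error only.

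Hemoglobin is assembled from α-like and β-like chains, and both gene clusters are switched during development. Primitive erythroid cells of the yolk sac use the embryonic chains Hba-x (ζ), Hbb-y (εy) and Hbb-bh1 (βh1) together with the adult α chains. Definitive erythroid cells of the fetal liver and later of the bone marrow use Hba-a1, Hba-a2, Hbb-bs and Hbb-bt. Hba-x, Hbb-y and Hbb-bh1 are called embryonic here, and the other members adult, although Hba-a1 and Hba-a2 belong to both lineages.

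In GRCm38 the α-like genes lie on the plus strand of chromosome 11, with Hba-x at 32276400 to 32278116, Hba-a1 at 32283511 to 32284465 and Hba-a2 at 32296489 to 32297298. The β-like genes lie on the minus strand of chromosome 7. Read in the direction of transcription, Hbb-y at 103851749 to 103853216 comes first, followed by Hbb-bh1 at 103841637 to 103843164, Hbb-bs at 103826534 to 103828096 and Hbb-bt at 103812524 to 103813996. Each of the 7 genes has 3 exons in its first annotated transcript.

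Promoter sequence from RefSeq was found for 6 of the 7 members. The 250 bases before the start site are printed for Hbb-y, Hbb-bs, Hbb-bt, Hba-x and Hba-a1, the chains of which the results below compare embryonic and adult use. Capitals mark CACCC (bound by Klf factors), the box CCAAT (bound by NF-Y among others), the GATA factor core GATAA and the TATA-like ATAAA on either strand, searched as plain letters that may overlap. The windows are chr7:103853208-103853457 (Hbb-y, minus strand), chr7:103827929-103828178 (Hbb-bs, minus strand), chr7:103813924-103814173 (Hbb-bt, minus strand), chr11:32276350-32276599 (Hba-x, plus strand) and chr11:32283422-32283671 (Hba-a1, plus strand), all in GRCm38.p6.
Hbb-y: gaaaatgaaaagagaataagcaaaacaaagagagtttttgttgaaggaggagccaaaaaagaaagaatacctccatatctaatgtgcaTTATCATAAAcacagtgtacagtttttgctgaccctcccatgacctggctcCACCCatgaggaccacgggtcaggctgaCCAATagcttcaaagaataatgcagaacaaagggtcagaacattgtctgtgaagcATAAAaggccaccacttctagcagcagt
Hbb-bs: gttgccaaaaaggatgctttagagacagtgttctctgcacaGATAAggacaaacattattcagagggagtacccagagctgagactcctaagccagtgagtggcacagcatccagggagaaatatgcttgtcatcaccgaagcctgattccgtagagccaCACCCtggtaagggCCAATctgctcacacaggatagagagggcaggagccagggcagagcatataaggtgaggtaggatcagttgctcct
Hbb-bt: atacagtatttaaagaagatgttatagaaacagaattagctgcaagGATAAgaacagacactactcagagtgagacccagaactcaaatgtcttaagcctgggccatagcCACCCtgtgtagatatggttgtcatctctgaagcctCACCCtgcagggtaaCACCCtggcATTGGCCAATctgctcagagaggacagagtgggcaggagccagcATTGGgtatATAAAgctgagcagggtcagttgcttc
Hba-x: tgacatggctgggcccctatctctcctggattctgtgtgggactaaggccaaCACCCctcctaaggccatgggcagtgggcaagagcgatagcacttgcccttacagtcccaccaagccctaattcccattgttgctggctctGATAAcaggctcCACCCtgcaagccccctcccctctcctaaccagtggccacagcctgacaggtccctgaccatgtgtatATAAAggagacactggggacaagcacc
Hba-a1: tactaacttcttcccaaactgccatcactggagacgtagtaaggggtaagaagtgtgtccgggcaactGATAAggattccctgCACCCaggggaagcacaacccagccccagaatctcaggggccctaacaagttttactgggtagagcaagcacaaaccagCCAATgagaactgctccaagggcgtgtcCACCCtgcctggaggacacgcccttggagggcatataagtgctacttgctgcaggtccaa
CACCC was present in all 5 windows, with 3 matches in Hbb-bt, 2 each in Hba-x and Hba-a1 and 1 each in Hbb-y and Hbb-bs. Of 32851 promoter windows of the same length, 52.0% held it. GATAA, held by 22.6% of all windows, occurred 1 time in each of the 5, on the opposite strand in Hbb-y. CCAAT (33.8% of all windows) was found at −83 in Hbb-y, at −76 in Hbb-bs and at −88 in Hba-a1, counted back from the start site, and had 3 matches in Hbb-bt and no match in Hba-x. ATAAA (37.3% of all windows) lay at −157 and −28 in Hbb-y and at −27 in Hbb-bt and Hba-x. Hbb-bs and Hba-a1 had no match to it, but both windows hold catataag shortly before the start site. The plain-letter search for ATAAA misses this TATA-like stretch, so the missing match does not mean that these promoters lack one. Start sites are those of RefSeq, and in the GENCODE annotation the first transcript start of each of the 5 genes lies further upstream, within the window. Hba-a1 and Hba-a2 were identical at 97.6% of aligned promoter positions, Hbb-bs and Hbb-bt at 70.5% and Hbb-y and Hbb-bs at 51.5%.

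The adult paralogs also share transcript sequence. In the last 300 bases of the annotated transcripts, 57.3% of the 90-base windows of Hba-a1 occur in Hba-a2 and 24.6% of those of Hbb-bs occur in Hbb-bt. The split of UMIs between Hba-a1 and Hba-a2, and to a lesser degree between Hbb-bs and Hbb-bt, is therefore uncertain. None of the windows was shared between Hbb-y and Hbb-bh1, Hba-x and Hba-a1, or Hbb-y and Hbb-bt. If reads from shared windows were left uncounted, the adult chains would lose UMIs that the embryonic chains keep. The embryonic shares and the α-like shares given below would then be affected too, which was not tested.

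At E12 the file held all barcodes, and the 5732 with more than 451 UMIs were taken as cells. The later files held 6062, 5884 and 4242 cells. Median depths were 1241, 1013, 4531.5 and 1510 UMIs. In cells with fewer than 20 globin UMIs, 10 endothelial marker genes together had 1540, 3051, 6787 and 8710 CPM. CPM are UMIs per 1000000 UMIs of the cells counted, here without the UMIs of the 7 genes. Between pairs of libraries, 25 to 60 cell barcodes were shared, against 33.0 to 48.4 expected from the number of possible barcodes.

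Globin transcripts were concentrated in very few barcodes. A barcode with 20 or more UMIs of the 7 genes is called globin-rich. E12 had 49 of them, which is 0.855% (0.633 to 1.13) of its cells, and E15 had 14 (0.231%, 0.126 to 0.387). P2 had 4 (0.0680%, 0.0185 to 0.174) and the adult library 5 (0.118%, 0.0383 to 0.275). They held 54995 of the 57649 globin UMIs of E12, 8971 of 9330 for E15, 510 of 842 for P2 and 3184 of 3432 for the adult. The lowest globin-rich barcodes had 20, 21, 33 and 55 globin UMIs, and the highest other cells had 18, 7, 10 and 9.

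The embryonic share of globin UMIs in globin-rich barcodes was 43.5% (43.1 to 43.9) for E12 and 11.7% (11.1 to 12.4) for E15. None of the 3184 globin UMIs of the adult globin-rich barcodes was embryonic (exact upper bound 0.116%). Of β-like UMIs alone, 81.0% (80.5 to 81.5) were embryonic at E12 and 23.7% (22.4 to 25.0) were at E15. P2 stood outside this order with 26.9% (23.1 to 30.9) of 510 globin UMIs, and the 4 barcodes behind this value are described separately below.

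Hbb-y, the main embryonic β-like chain, was the most abundant of the 7 at E12, with 20195 UMIs or 36.7% of globin UMIs. At E15 it held 986 UMIs or 11.0%, and it was at 0 in the adult. Hbb-bh1, the earliest β-like chain, was scarce, with 739 UMIs (1.34%) at E12, 13 UMIs (0.145%) at E15 and none later. Hba-x, the embryonic α-like chain, lay between them with 3003 UMIs (5.46%) at E12 and 52 UMIs (0.580%) at E15, and was also at 0 at P2 and in the adult.

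Of the adult β-like chains, Hbb-bs held 4.31% of globin UMIs at E12, 27.5% at E15 and 34.2% in the adult. Hbb-bt, its neighbour further along the cluster, held 4.60%, 8.46% and 3.80%. Hbb-bs thus made up 48.4% (47.0 to 49.8) of their sum at E12, 76.5% (75.0 to 77.9) at E15 and 90.01% (88.2 to 91.6) in the adult. These sums pool barcodes with mostly embryonic and with mostly adult β-like UMIs. At E12 the share was 41.0% (39.4 to 42.6) in the former and 75.7% (73.0 to 78.3) in the latter. At E15 it was 20% (11.4 to 31.3) of 70 UMIs and 77.7% (76.2 to 79.2). The pooled rise from E12 to E15 was therefore not seen within the former.

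The α-like chains together made up 53.0% of globin UMIs at E12, 52.9% at E15 and 62.0% in the adult. Hba-a1 held 54.6% (54.0 to 55.2), 52.5% (51.1 to 54.0) and 56.2% (54.0 to 58.4) of the adult α UMIs at these stages, subject to the shared sequence given above.

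**Figure D1:**
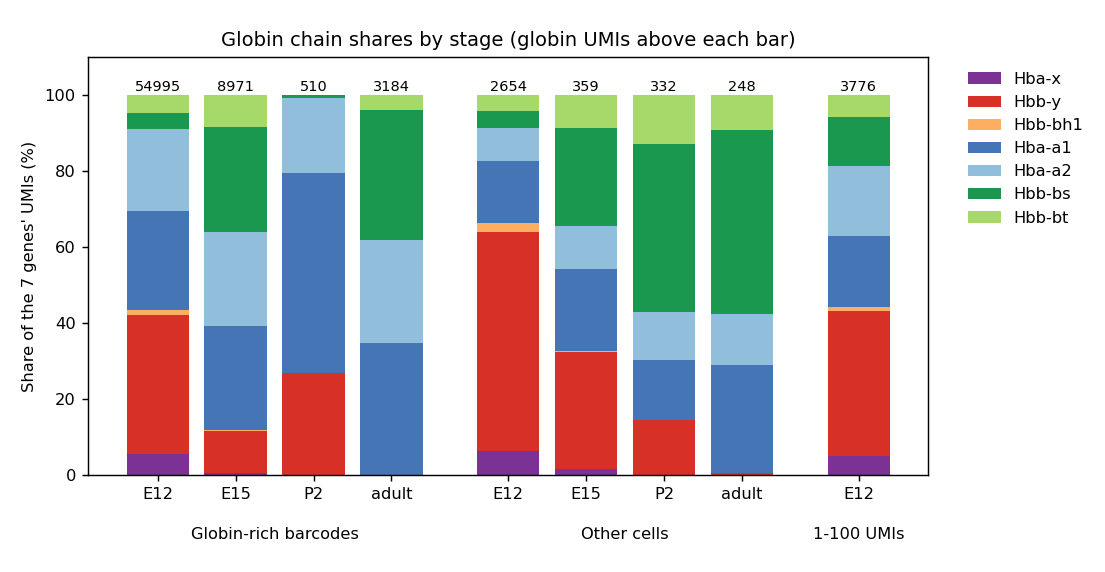
Stacked bars give the share of each of the 7 genes (y axis, percent of their UMIs) in globin-rich barcodes and in other cells of each stage, and in E12 barcodes of 1 to 100 UMIs that are cells of no other library, with the number of globin UMIs above each bar. The embryonic chains (purple, red and orange) fill 43.5% of the E12 globin-rich bar and 66.2% of the E12 other cells, and 0% and 0.403% of the adult bars.

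Single barcodes were of 1 kind or the other. Among barcodes with 10 or more β-like UMIs, the embryonic chains held over 50% of β-like UMIs in 45 of 48 at E12, 3 of 13 at E15, 2 of 2 at P2 and 0 of 4 in the adult. The E12 count includes 4 barcodes whose only globin was Hbb-y, and both P2 barcodes held Hbb-y with 0 or 1 UMI of other members, all described further on. None of the counted barcodes of any stage lay between 10% and 70%. The E15 share of 11.7% was therefore a sum over 14 barcodes, 3 of the embryonic kind (2512 globin UMIs, 93.5% of β-like UMIs embryonic) 10 of the adult kind (6429 globin UMIs, of which 0 were embryonic) and 1 with 30 UMIs of Hba-a1 and Hba-a2 and no β-like UMI.

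**Figure D2:**
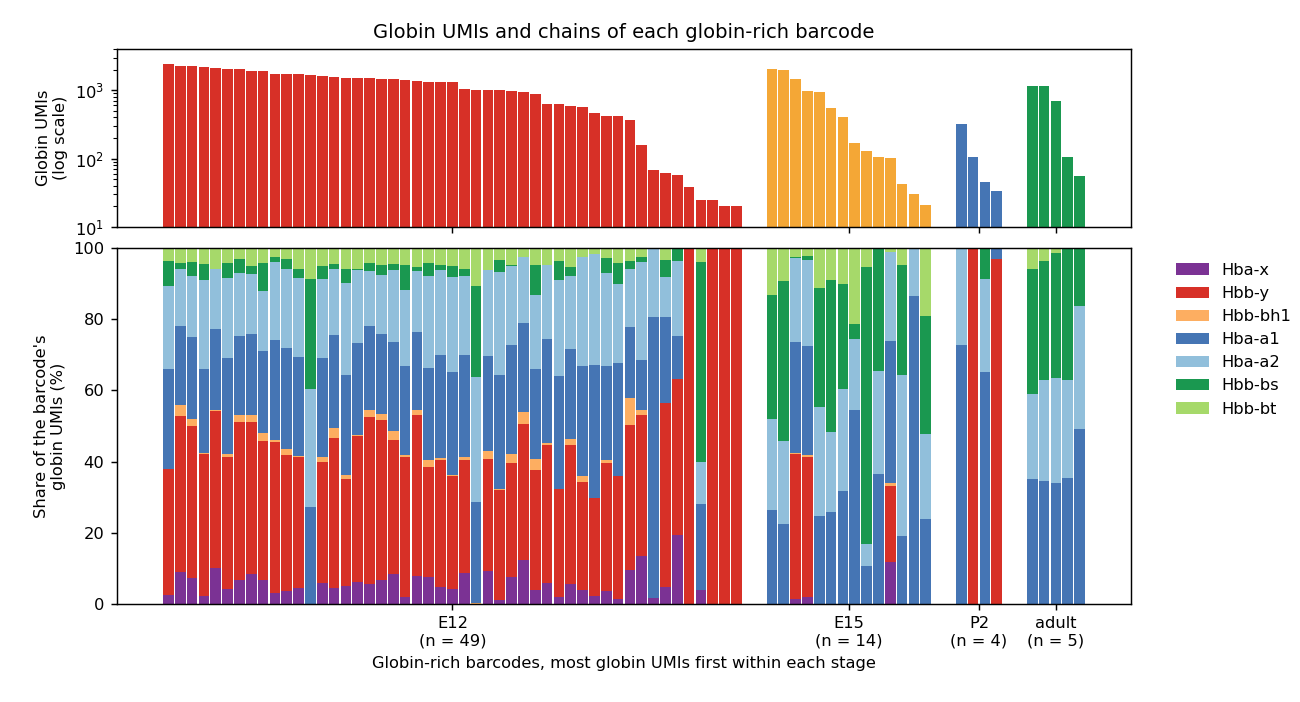
Each column is 1 globin-rich barcode, sorted by globin UMIs within its stage, with its globin UMIs on a log scale (upper panel) and the percent of each gene (lower panel). Hbb-y (red) appears in 45 of 49 columns at E12, 3 of 14 at E15, 2 of 4 at P2 and 0 of 5 in the adult.

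The E12 barcodes of the embryonic kind with 200 or more globin UMIs, a limit chosen after the values were seen, numbered 38. They held 365 to 2453 globin UMIs (median 1438.5), which was a median of 80.1% of all their UMIs, and each had 0 or 1 UMI of the 10 endothelial markers. Embryonic chains made up 73.6% to 94.7% of their β-like UMIs. All 38 also held Hbb-bt, with 8 to 122 UMIs, so adult β-like transcripts were counted beside Hbb-y in each of them.

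The lowest and highest of the 38 for each share were picked by the value compared, so their difference is a description. Hba-x made up 1.61% (0.775 to 2.94, 10 of 621 UMIs) of α-like UMIs in the lowest barcode and 21.8% (18.3 to 25.5, 115 of 528 UMIs) in the highest. Hbb-bh1 ranged from 0 of 243 β-like UMIs (0 to 1.51) to 27 of 197, or 13.7% (9.23 to 19.3). Hbb-bs ranged from 0 of 416 β-like UMIs (0 to 0.883) to 75 of 444, or 16.9% (13.5 to 20.7). Hbb-bt ranged from 41 of 820 β-like UMIs (3.61 to 6.72%) to 60 of 399 (11.7 to 18.9%). The α-like share of all globin UMIs ranged from 44.7% (42.1 to 47.2) to 70.6% (66.2 to 74.7).

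Barcodes with more Hba-x among their α-like UMIs tended to have more Hbb-bh1 among their β-like UMIs. Across the 38 barcodes Pearson's r was 0.64 and Spearman's rho 0.65. In the 12 barcodes with least Hba-x the median Hbb-bh1 share was 0.545%, and in the 12 with most Hba-x it was 4.27%. The shares come from separate gene clusters and denominators, all 38 barcodes are from 1 library, and the relation is a description without a test.

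The β-like shares of 1 barcode sum to 100%, which ties them to each other. Hbb-bs ran the other way, with a Pearson's r of −0.45 to the Hba-x share and medians of 8.91% and 3.96% in the same groups of 12. Its values overlapped widely, reaching 15.2% in the group with least Hba-x and 14.7% in the group with most. Hbb-bt had an r of 0.04 and medians of 8.40% and 9.14%. The share of α-like among all globin UMIs was lower where the Hba-x share was high (r = −0.48, medians 55.8% and 47.8%). The α-like UMIs are the numerator of this share and the denominator of the Hba-x share. A negative r is therefore partly built in, and it is not read as a relation. The mitochondrial share of the other UMIs had an r of 0.05. UMIs outside the members had an r of 0.09 and a rho of 0.48 to the Hba-x share, with medians of 253.5 and 447. Globin as a percent of all UMIs had an r of −0.17 and a rho of −0.35, with medians of 83.6% and 75.4%. The part of these measures in the relations to Hba-x was not tested.

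Hbb-bs and Hbb-bt appeared in different proportions in embryonic-kind and adult-kind barcodes. Among those with 200 or more globin UMIs, Hbb-bt exceeded Hbb-bs in 28 of 38 embryonic-kind barcodes at E12 and in both at E15. Hbb-bs exceeded Hbb-bt in both adult-kind barcodes at E12, all 5 at E15 and all 3 in the adult. An E12 barcode with 2114 globin UMIs held 4 UMIs of Hbb-bs and 122 of Hbb-bt, and another with 1525 held 3 and 89.

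**Figure D3:**
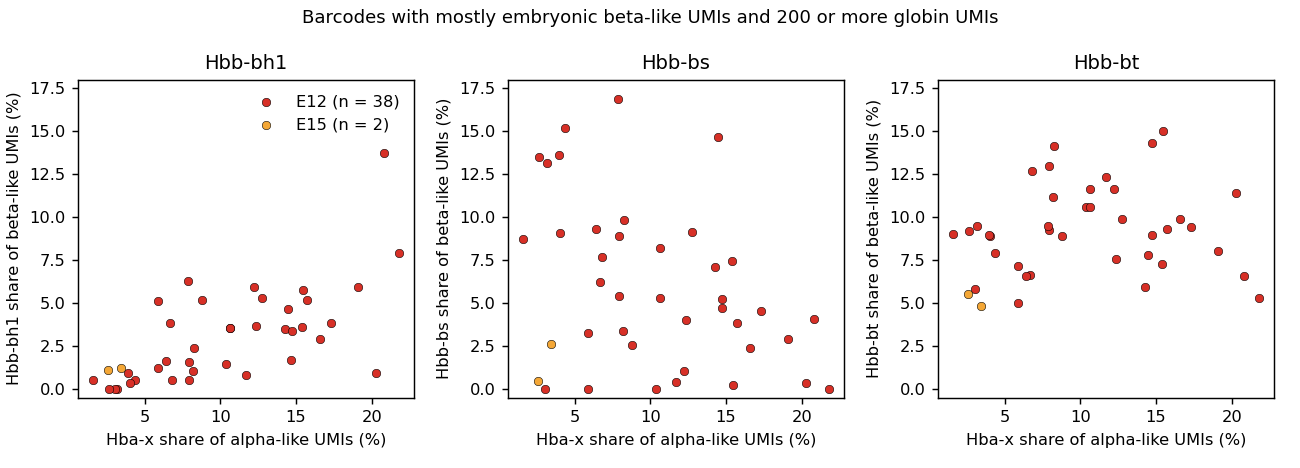
Each point is 1 barcode with mostly embryonic β-like UMIs and 200 or more globin UMIs, 38 from E12 and 2 from E15, plotted by the Hba-x share of α-like UMIs (x axis, percent) against the share of Hbb-bh1, Hbb-bs or Hbb-bt among β-like UMIs (y axis, percent). Hbb-bh1 is higher towards the right (r = 0.64 at E12), Hbb-bs tends to be lower (r = −0.45), and for Hbb-bt r is 0.04.

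The 2 large embryonic-kind barcodes at E15, with 1443 and 966 globin UMIs, fell at the low end of the E12 range for Hba-x, at 2.58% and 3.45% of α-like UMIs. Their Hbb-bh1 shares of β-like UMIs were 1.11% and 1.20%, against an E12 median of 3.14%. Embryonic chains still made up 93.97% and 92.5% of their β-like UMIs, against an E12 median of 85.4%. Hbb-bs held 0.476% and 2.65% of their β-like UMIs, against an E12 median of 5.28%. The remaining embryonic-kind barcode at E15, with 103 globin UMIs and 6 endothelial UMIs, had 12 UMIs of Hba-x, or 15.2% of its α-like UMIs.

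Adult-kind barcodes were also found at E12, and their origin was not tested. Of the 3, the 2 large ones held 1675 and 1013 globin UMIs with 0 and 1 embryonic β-like UMI, 0 Hba-x UMIs and no UMI of the endothelial markers. Their Hbb-bs share of adult β-like UMIs was 78.2% and 70.5%. In the 5 large adult-kind barcodes at E15 this share was 72.4% to 82.9%, and in the 3 of the adult 85.5% to 96.4%, so the large adult barcodes lay above the large ones of E12 and E15. Smaller adult-kind barcodes, with under 200 globin UMIs, ranged more widely, from 16.3% to 100%. Globin made up 90.6% and 92.2% of all UMIs in the 2 E12 barcodes and a median of 93.2% in the 5 at E15.

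Of the 4 globin-rich barcodes of P2, 1 held 95% or more α-like UMIs and 2 held 95% or more β-like UMIs. These counts were 1 and 4 of 49 at E12. They were 1 and 0 of 14 at E15, and both were 0 of 5 in the adult. The first barcode of P2 held 237 UMIs of Hba-a1 and 89 of Hba-a2 and no β-like UMI. The second held 105 UMIs of Hbb-y and no other member. A further one held 32 of Hbb-y and 1 of Hba-a1, and the last 30 of Hba-a1, 12 of Hba-a2 and 4 of Hbb-bs. All 4 had endothelial marker UMIs (10, 91, 11 and 51, in the same order), and globin was a median of 0.777% of their UMIs. The endothelial UMIs do not set them apart within P2, where 99.9% of the 5880 cells that were not globin-rich had 2 or more. Without the 3 barcodes whose globin UMIs came to 95% or more from α-like or from β-like genes, the P2 share of embryonic chains was 0 of 46 UMIs.

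Barcodes with 2 or more endothelial UMIs were also found among the globin-rich ones of the other stages, 9 of 49 at E12, 8 of 14 at E15 and 4 of 5 in the adult. Of the cells that were not globin-rich, 47.7%, 73.6% and 98.5% had 2 or more at these stages. The counts were not matched for UMIs outside the members or for kind of barcode, so they do not show whether there is an excess. At E12 the 38 large embryonic-kind barcodes had 0 or 1 endothelial UMI each. At E15 the endothelial list had a ratio of 1.39 (1.02 to 1.83) to the other cells. Whether the globin-rich barcodes with 2 or more endothelial UMIs are doublets was not tested. Without them, the embryonic share was 43.4% at E12, 11.4% at E15 and 0% in the adult, where 1 barcode remained.

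Hbb-y was also found in cells without any other globin, a group that was picked after its values were seen. Among E12 cells, 78 held 5 or more Hbb-y UMIs, and 26 of these (33.3%, 23.1 to 44.9) held no UMI of the other 6 genes. Their Hbb-y UMIs ranged from 5 to 39 with a median of 8. The 4 highest had 39, 25, 20 and 20 Hbb-y UMIs and reached the globin-rich threshold. Of the E12 barcodes with at most 451 UMIs, 34 held 5 or more Hbb-y UMIs and 2 of these (5.88%, 0.720 to 19.7) held Hbb-y alone.

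Endothelial markers were counted in nearly all of these Hbb-y cells. At E12, 25 of the 26 had 2 or more endothelial UMIs (median 4, median depth 950.5 UMIs), while 47.7% of the 5683 E12 cells that were not globin-rich did. UMIs of the heme synthesis and erythroid membrane lists were absent in 24 of the 26. Such absence is usual, since the 5683 cells held only 1323 and 254 UMIs of these lists. E15 had 2 such Hbb-y cells, with 7 and 6 Hbb-y UMIs, and P2 had 2 with 105 and 7, all with 3 or more endothelial UMIs. Of the E15 and P2 cells that were not globin-rich, 73.6% and 99.9% had 2 or more. The P2 cell with 105 Hbb-y UMIs held 5 UMIs of the heme and membrane lists, at a depth of 12061 UMIs. No adult cell held 5 Hbb-y UMIs. The opposite pattern, 5 or more UMIs of Hba-a1 and Hba-a2 with no other member, was seen in 3 cells at E12 and 1 at each other stage, and Hbb-bs and Hbb-bt alone in 0, 1, 0 and 0. Transfer of single transcripts between droplets or during amplification was not tested.

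**Figure D4:**
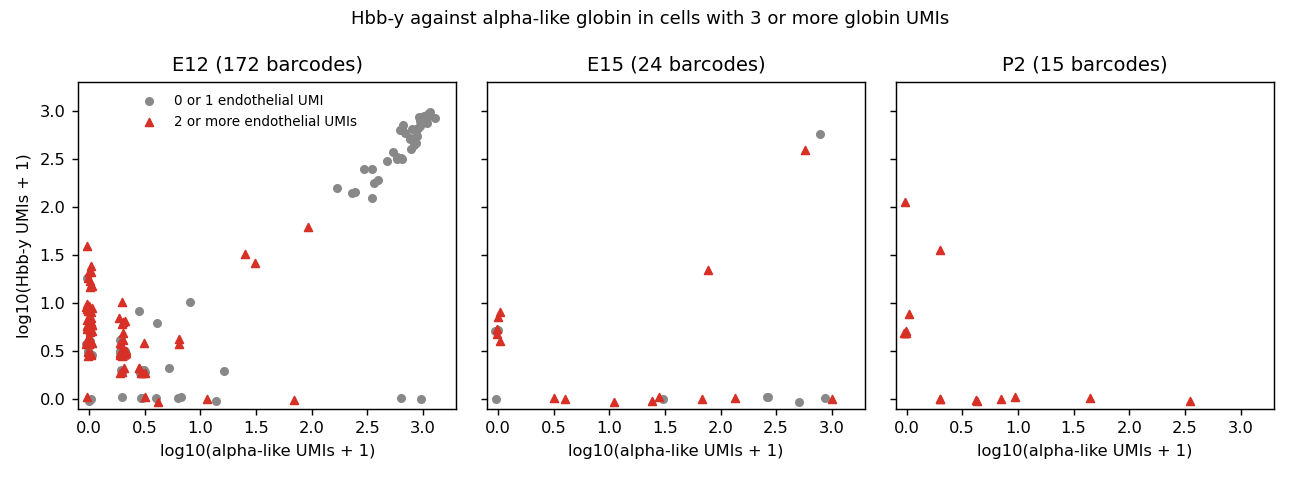
Each point is 1 cell with 3 or more globin UMIs at E12, E15 or P2, with α-like UMIs on the x axis and Hbb-y UMIs on the y axis, both as log10 of the count plus 1 with slight jitter, and red triangles for 2 or more endothelial UMIs. The 38 large E12 barcodes form the grey group at upper right, and the column at 0 α-like UMIs is mostly red, with up to 39 Hbb-y UMIs at E12 and 105 at P2.

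The remaining cells, called other cells, carried globin at a low level. All 7 genes together had 330 CPM (318 to 343) of all UMIs in the E12 library and 50.9 (45.7 to 56.4) in that of E15. The P2 and adult libraries had 11.2 (10.0 to 12.5) and 32.5 (28.5 to 36.8) CPM. At least 1 globin UMI was found in 32.4%, 5.08%, 4.51% and 5.26% of the other cells, at median depths of 1236, 1013, 4530.5 and 1511 UMIs. To compare them at 1 depth, each cell was thinned to 500 UMIs, which left out 83 E12 and 363 E15 cells. A globin UMI was then left in 13.9% of E12 cells (13.0 to 14.8), in 2.22% of E15 (1.85 to 2.63), in 0.544% of P2 (0.373 to 0.767) and in 1.65% of adult cells (1.29 to 2.08). Globin in cells that do not make it can be free RNA, and its part in these shares was not tested.

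The embryonic share in the other cells was lower at each later stage when globin-rich was set at 20 globin UMIs. It was 66.2% (64.4 to 68.0) of 2654 globin UMIs for E12 and 32.6% (27.8 to 37.7) of 359 for E15. P2 had 14.5% (10.9 to 18.7) of 332, and the adult library 0.403% (0.0102 to 2.23) of 248. The 4 intervals do not overlap, but they treat each UMI as independent, and UMIs were clustered in cells. Among other cells with 3 to 19 globin UMIs, 7 at E15 held 32 of the 111 Hbb-y UMIs, and 5 at P2 held 23 of 48. With globin-rich set at 10% of all UMIs instead, E15 had 18.3% (15.7 to 21.1) and P2 35.9% (31.7 to 40.2), which turns the order of these stages. At E12 and E15 these shares were above those of the globin-rich barcodes of the same library.

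Hbb-y accounted for most of this. Its level in the other cells was 191, 15.7, 1.62 and 0.131 CPM, the last from 1 UMI. Hbb-bh1 gave 59, 1, 0 and 0 UMIs, and Hba-x gave 163, 5, 0 and 0. Hbb-bs was at 14.8, 13.2, 4.96 and 15.7 CPM, so its level differed less between stages than that of Hbb-y. It was the most abundant chain at P2 with 44.3% and in the adult with 48.4% of globin UMIs. Hbb-bt was at 13.8, 4.39, 1.45 and 3.01 CPM, Hba-a1 at 54.4, 11.0, 1.76 and 9.29, and Hba-a2 at 28.6, 5.67, 1.42 and 4.32.

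At E12, E15 and P2 the Hbb-y share was higher in cells with several globin UMIs than in cells with 1 or 2. In E12 cells with 3 to 19 globin UMIs, Hbb-y made up 70.6% (66.9 to 74.1) of 636 globin UMIs and the α-like chains 21.9%. In E12 cells with 1 or 2 globin UMIs, Hbb-y made up 53.8% (51.6 to 56.0) of 2018. At E15 the same classes had 71.1% (55.7 to 83.6) of 45 UMIs and 25.2% (20.5 to 30.3) of 314. At P2 they had 35.9% (24.3 to 48.9) of 64 UMIs and 9.33% (6.13 to 13.5) of 268. Cells with 3 to 19 globin UMIs include most of those with Hbb-y alone.

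Cells were also split by markers of the endocardium, which lines the heart chambers, and of coronary vessels, taking those with 2 or more UMIs of 1 list and 0 of the other. Hbb-y reached 181 CPM (160 to 205) in 983 endocardial-marker cells at E12 and 104 CPM (58.3 to 172) in 79 coronary-marker cells, with overlapping intervals. At E15 the values were 10.5 CPM (5.99 to 17.0) in 1274 cells and 4.58 CPM (1.68 to 9.97) in 1044, where the intervals also overlapped. At P2, 122 endocardial-marker cells had 0 Hbb-y UMIs (exact upper bound 7.85 CPM), and 2623 coronary-marker cells had 4 Hbb-y UMIs, 0.342 CPM (0.0931 to 0.875).

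Barcodes of 1 to 100 UMIs, commonly taken as free RNA rather than cells, were counted at E12. The 156821 such barcodes held 729996 UMIs, of which 4086 were of the 7 genes, or 5597 CPM (5427 to 5772). This was above the 330 CPM of the other E12 cells per UMI, but per barcode it was 0.0261 globin UMIs against 0.467. Embryonic chains made up 43.7% (42.2 to 45.3) of these UMIs, close to the 43.5% of the globin-rich barcodes and below the 66.2% of the other cells. The single chains were not the same as in globin-rich barcodes, since Hbb-bs held 13.2% (12.2 to 14.3) in place of 4.31%, and the α-like chains 42.1% in place of 53.0%.

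Part of these barcodes matched cells of the E15 library. E12 barcodes with at most 451 UMIs whose sequence was that of an E15 cell held a mean of 17.3 UMIs, against 1.41 for those of P2 cells, 1.55 for those of adult cells and 1.28 for the rest. The 14 globin-rich E15 barcodes had 120 globin UMIs in the E12 file, 1.34% of the 8971 in their own library, and 11 of the 14 had at least 1. The E15 barcode with 585 Hbb-y UMIs had 8 Hbb-y UMIs at E12 and no Hbb-bs, and the one with 904 Hbb-bs UMIs had 10 of Hbb-bs and no Hbb-y. The 4 globin-rich barcodes of P2 and the 5 of the adult had 0 globin UMIs in the E12 file. How UMIs with E15 barcodes came to be in the E12 file was not tested.

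**Figure D5:**
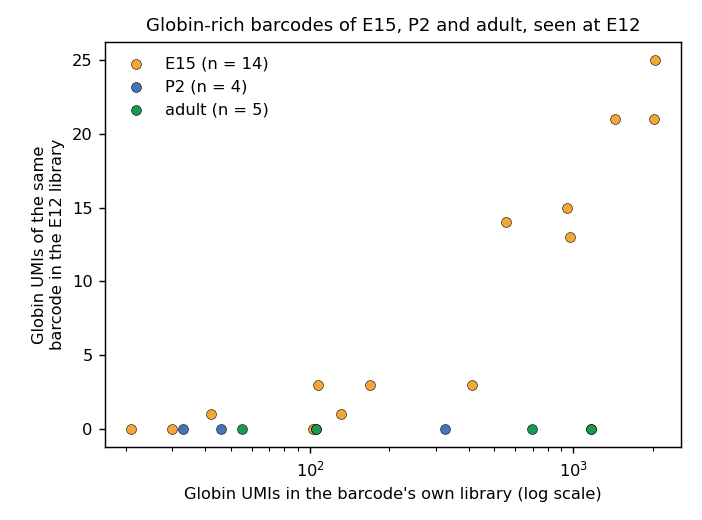
Each point is 1 globin-rich barcode of E15, P2 or the adult, with the globin UMIs in its own library on a log x axis and the globin UMIs of the same barcode in the E12 file on the y axis. E15 points rise to 25 globin UMIs at E12, and all P2 and adult points are at 0.

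Without the barcodes that are cells of any other library, an alternative chosen after the values were seen, 148776 barcodes of 1 to 100 UMIs and 3776 globin UMIs remained. The embryonic share was then 44.1% (42.5 to 45.7) and the Hbb-bs share 12.8% (11.7 to 13.9), so the composition was little altered. Within this set the composition differed between classes of globin load, without a trend. In the 83 barcodes with 3 to 19 globin UMIs, 593 of 1235 UMIs were globin, Hbb-bs held 29.5% (25.9 to 33.4) of these and the embryonic chains 18.7% (15.7 to 22.1). In the 2467 barcodes with 1 or 2 globin UMIs, the embryonic chains held 48.9% (47.0 to 50.9) and Hbb-bs 9.86% (8.74 to 11.1). The 18 barcodes with 20 or more globin UMIs (618 in all) had 48.5% (44.5 to 52.6) embryonic chains and 8.90% (6.77 to 11.4) Hbb-bs, near the class with 1 or 2. Beside the values for 1 or 2 globin UMIs, E12 cells with 1 or 2 globin UMIs had 63.4% embryonic chains and 53.8% Hbb-y, where the barcodes had 42.5% (40.6 to 44.5) Hbb-y.

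Genes of the red blood cell program were compared between globin-rich barcodes and other cells of the same stage, as ratios of CPM over all UMIs outside the 7 members. At E12 the globin-rich barcodes held 35785 such UMIs. Of 11324 genes with 20 or more UMIs in both groups together, 15.9% were higher by 2-fold or more and 52.4% lower to 0.5-fold or less, and 48.7% had no UMI in the globin-rich barcodes. The median ratio over these genes was 0.343. With 1 library there is no replicate check. The E12 group also pools unlike barcodes, and 9 of the 49 had 2 or more endothelial UMIs. A barcode with 25 globin UMIs held 3390 UMIs outside the members, against a median of 373 in the 38 large embryonic-kind ones. The E12 ratios are therefore not levels of a typical globin-rich barcode.

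At E12 all 8 heme synthesis genes had ratios of 2-fold or more, with a median of 7.08, and for 2 of them (Ppox and Uros, with 2 UMIs each) the interval included 1. Alas2, the erythroid enzyme of the first step of the pathway, had 28 UMIs in 19 of the 49 barcodes and 2 UMIs in all other cells. Fech, which inserts the iron, was 29.4-fold higher (17.2 to 47.6) and Urod 12.3-fold (5.78 to 23.1).

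Of 14 erythroid membrane and cytoskeleton genes, 4 could be counted and all 4 were higher. Slc4a1, the anion exchanger band 3, had 26 UMIs against 1 in the other cells. Epb41, protein 4.1, which other cells also express, was 9.40-fold higher (4.0 to 18.9). Add2, an adducin that was named after its values were seen, was 30.9-fold higher (7.90 to 88.1). Rhd, of the Rh blood group complex, had 8 UMIs against 1, under the 20 needed to be counted.

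Of the 29 genes for iron handling, redox protection and late maturation, 21 could be counted, 17 were higher and 3 lower, with a median ratio of 7.01. The ferritin subunits Fth1 and Ftl1 were 10.2-fold (9.38 to 11.1) and 3.32-fold (3.02 to 3.63) higher. Gpx1, a glutathione peroxidase, was 19.04-fold higher (16.6 to 21.8) and Prdx2, an abundant red cell peroxiredoxin, 5.42-fold (4.43 to 6.56).

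Transcription factors of erythropoiesis and of globin switching were sparse. Of 11 counted among 15, 3 were higher and 5 lower, with a median ratio of 0.767. Klf1, an activator of adult β-globin, had 7 UMIs in 7 of 49 globin-rich barcodes and 17 UMIs in all other E12 cells. Tal1 was 8.01-fold higher (2.56 to 19.1). Lmo2, at 1.91-fold (0.518 to 4.92), and Hmga2, at 1.32-fold (0.600 to 2.50), had intervals that include 1.

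At the later stages fewer UMIs were available. The later globin-rich barcodes held 11592, 31269 and 5676 UMIs outside the members, and genes higher by 2-fold or more made up 15.3%, 16.2% and 11.3% of those counted. Lower genes made up 71.2%, 56.3% and 80.8%, and 70.2%, 53.0% and 80.1% of the counted genes had no UMI in them. At E15, 3 of 7 counted heme synthesis genes were higher and 4 lower, and 15 of 21 iron, redox and maturation genes were higher and 3 lower, with Gpx1 8.30-fold (5.63 to 11.8) and Fth1 3.68-fold (2.80 to 4.74) higher. In the adult, Alas2 had 8 UMIs in 3 of 5 barcodes and none in the other cells, 2 of 7 heme synthesis genes were higher and 5 lower, 5 of 21 maturation genes were higher and 13 lower, and Fth1 was at 0.306-fold (0.0630 to 0.893). P2 had 0 Alas2 UMIs in either group, 3 of 7 heme synthesis genes higher and 1 lower, 4 of 23 maturation genes higher and 12 lower, and Fth1 at 0.926-fold (0.645 to 1.29). Of the counted membrane genes, 1 of 3, 0 of 3 and 1 of 1 were higher and 2, 3 and 0 lower. Of the transcription factors, 2 of 9, 2 of 9 and 1 of 5 were higher and 6, 4 and 3 lower.

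Markers of other blood cells had few or no UMIs in the globin-rich barcodes. The 8 macrophage markers were at 0 at all 4 stages, the 4 leukocyte markers had 2 UMIs at E12 and 0 later, and the 8 megakaryocyte and platelet markers likewise. The ratio of the leukocyte list to the other E12 cells was 2.05 (0.247 to 7.49), and the upper bounds for macrophage markers were 1.90, 13.2, 15.5 and 4.35, so a lower level than in the other cells was not detectable at this depth. Cardiomyocyte markers had 2, 0, 2 and 2 UMIs. The endothelial list, outside the members, had ratios to the other cells of 1.02 (0.767 to 1.32), 1.39 (1.02 to 1.83), 0.768 (0.655 to 0.895) and 1.13 (0.856 to 1.47). The E12 ratio pools unlike barcodes. Of the 49, 9 had 2 or more endothelial UMIs, while the 38 large embryonic-kind ones had 0 or 1 each. It is therefore not the level of a typical globin-rich barcode. Coronary markers had ratios of 2.11 (0.770 to 4.61), 1.79 (1.23 to 2.53), 0.158 (0.123 to 0.200) and 1.27 (1.10 to 1.47), and endocardial markers had 14, 2, 1 and 0 UMIs. Mural and fibroblast markers had 39, 1, 31 and 0 UMIs and markers of dividing cells 45, 20, 87 and 0. The part of these cells in the globin values was not tested.

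Outside the lists, genes were ranked by their mean ratio in globin-rich barcodes to other cells, called likeness to the members. Over the 156 genes with 20 or more UMIs in globin-rich barcodes of at least 2 stages, likeness was the mean over the 4 stages of the log2 ratio with 20 CPM added to both sides. Sec61g, a subunit of the protein translocation channel, was first at 0.94, with 1.30, 1.01, 1.01 and 0.43 in the 4 stages. Hn1 followed at 0.79, then mt-Nd1 at 0.53, mt-Co2 at 0.51, mt-Co1 at 0.49, Malat1 at 0.47, Rpsa at 0.47, H3f3a at 0.46 and mt-Nd2 at 0.40. Some were below the other cells at 1 stage. The value of mt-Nd2 was −0.44 at E12, and at P2 mt-Co2 had −0.25, Malat1 −0.04 and mt-Co1 −0.03. The others named had positive values at each stage. The members themselves had 605805 CPM of all UMIs in globin-rich barcodes and 330 in other cells at E12, a far larger excess. The mitochondrial genes were highest in the adult, with mt-Co2 at 1.73 and mt-Nd1 at 1.52, and there the mitochondrial share of UMIs outside the members was a median of 12.7% in globin-rich barcodes against 4.27% in other cells. No stage had 20 globin-rich barcodes of both kinds, so genes outside the members were not compared between the embryonic and the adult kind.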

How the data were processed

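RNA was measured in CD31+/CD45− mouse heart cells, with 1 library per stage. Libraries came from the 10x Genomics v2 3′ kit and were run on a HiSeq 4000. The submitters' processing notes name Cell Ranger 2.2 and the build mm10. The values deposited by the authors are whole-number UMI counts per gene and barcode, without normalization. E12 barcodes with at most 451 UMIs were left out of the cells. The study's upper limits and doublet removal were not applied, and no doublet caller was run. The 7 genes were summed per barcode, and globin-rich was set at 20 UMIs.

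Shares have exact Clopper-Pearson intervals, sums exact Poisson intervals and ratios exact conditional binomial intervals at 95%. Upper bounds given for a count of 0 are the upper ends of these exact intervals. Only where a low count is set beside 0 is a count of 0 taken to allow 3. No test between stages was made, since each stage is 1 library. The contrast and the intervals of shares and ratios were tested on simulated counts. For the contrast and ratios, only genes with far more UMIs in the other E12 cells than the 20 needed here were simulated. Sparse genes were therefore not covered by it. Genes needed 20 UMIs in both groups together. A ratio of 2 or more, or of 0.5 or less, counts as higher or lower, with no replicate check. Genes named are the members and up to 4 genes per erythroid list with most UMIs in globin-rich barcodes. The 10 genes highest in the likeness ranking belong to this rule too. Some genes that this rule names are not reported here. The members and lists were chosen with earlier results of these data known. Ahsp and Hbb-bh0, both in the lists, were not analysed here. Python 3.11.15, numpy 2.4.6 and scipy 1.17.1 were used. Gene positions come from GENCODE M21 (GRCm38, the build of mm10) and promoters from RefSeq.

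Alternatives were thresholds of 10 and 50 globin UMIs, a globin share of 10% of UMIs, E12 limits of 200 and 1000 UMIs, the study's upper limits, leaving out barcodes with endothelial UMIs, a mean over barcodes and leaving out the largest barcode.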

Additional observations from a re-analysis of the deposited data

Results flagged for a closer look

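Signal was present in barcodes and genes outside the comparisons of the report. At E12, 32 barcodes with at most 451 UMIs held 20 or more globin UMIs, 2671 in all, of which 43.8% (41.9 to 45.7) were embryonic chains. Of those with 10 or more β-like UMIs, 23 were mostly embryonic and 6 mostly adult, and 3 of the 32 had the barcode of an E15 cell. E12 barcodes with at most 451 UMIs that match an E15 cell held 0.0439 globin UMIs each, against 0.00835 for barcodes of no library's cells. Their depth differed as well, with means of 17.3 and 1.28 UMIs. Per UMI the order was reversed. Among barcodes of 1 to 100 UMIs, those of E15 cells had 2558 globin CPM (2256 to 2889). Those that are cells of no other library had 6095 (5902 to 6292).

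The minor globin genes were seen in E12 globin-rich barcodes. Hbq1a and Hbq1b, the θ-like genes of the α cluster, had 13 UMIs there, and 1 in all other E12 cells. Hbb-bh2 had 1 UMI, which is under the 3 counts that a count of 0 allows. Groups of 1 library allow no check for samples that stand apart.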

How the results depend on the processing

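No paired analysis was possible because each stage has 1 library and no result comes from a test. The adult shares of embryonic chains stayed at 0% in globin-rich barcodes and at 0.245% to 0.437% in the other cells. For E12 globin-rich barcodes only the mean over barcodes moved the share, to 46.4%, and E12 other cells went to 63.9% at 1000 or more UMIs and 63.4% in cells with at most 2 globin UMIs. The E15 globin-rich share was 15.2% under the study's upper limits and, without the largest barcode, also 15.2%, and 8.44% as a mean over barcodes. E15 other cells went to 25.9% with a threshold of 50 UMIs, 18.3% with globin at 10% of UMIs and 27.1% with at most 2 globin UMIs. P2 shares followed single barcodes. In globin-rich ones they were 0% with globin at 10% of UMIs, 7.90% under the upper limits, 49.2% as a mean, 74.5% without the largest barcode and 0% without single-class barcodes. In P2 other cells they were 19.5%, 35.9% and 9.33% at 50 UMIs, at 10% of UMIs and with at most 2 globin UMIs, so globin at 10% of UMIs turned the order of E15 and P2. Without barcodes of 2 or more endothelial UMIs no P2 barcode was left, so no value could be given. The limits to single-class barcodes, to at most 2 globin UMIs and to barcodes of no other library were chosen after seeing the data. Depth limits P2 and adult values, which rest on 510 and 3184 globin UMIs in 4 and 5 barcodes. Of the other chain shares, 15 moved and 8 did not as a mean over barcodes, and 7 moved and 17 did not without barcodes of 2 or more endothelial UMIs.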
